A study of Mus musculus with 66 samples.

Results

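The step described here runs from 50 to 60 minutes after mouse embryonic stem cells were released from an arrest in mitosis, in the arm that received no auxin. Its members are all genes with at least 1 TPM (the share of a gene's transcripts in a library, corrected for gene length) in at least 1 of the 9 group means without auxin. That rule gave 8871 of the 13957 genes in the authors' table, or 63.6%, and it used no difference between 50 and 60 minutes. Prss36 lay just inside the threshold, with a highest level of 1 TPM, and Srd5a3 just outside it, with 0.998 TPM. The cells were an E14Tg2a derivative, a 129/Ola mouse embryonic stem cell line in which auxin triggers degradation of Esrrb and Nr5a2, so the engineered degradation system was shared by both arms and only the auxin differed. The arm was read from the sample titles, since the treatment label is ctl for every RNA library. Each group held 3 libraries of total RNA, depleted of ribosomal RNA, stranded and sequenced from both ends, so 6 of the 54 RNA libraries stand behind this step. The labels tie the 3 libraries of a group to no separate cultures, and how many clones of the derivative were used is not given in the sources used here.

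During mitosis chromosomes condense, most RNA polymerase II leaves the DNA and transcription drops to a low level. On the way back into interphase polymerases start at promoters and have to travel along a gene before its whole RNA is made, so the RNA of a long gene takes longer to complete than that of a short one. Immediate early genes, which are short and give RNA of brief life, are the textbook case of fast and passing induction. In embryonic stem cells the network of Pou5f1, Nanog, Klf4, Esrrb and Nr5a2, which maintains pluripotency, has to be switched on again after every division.

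All values are the authors' means of 3 libraries, with 1 value per group and no spread, so no difference below has a replicate error or a test. A difference is log2(TPM + 1) at 60 minus that at 50 minutes, and a gene is said to have risen or fallen where that difference passed 1.5-fold, a size and not a test. The pseudocount of 1 TPM makes the differences of low genes smaller than their ratios. All 9 stem cell markers checked (Pou5f1, Nanog, Zfp42, Sall4, Klf4, Esrrb, Tdgf1, Dppa5a and Utf1) were members, at 3.97 to 29.8 TPM at 50 minutes and 5.84 to 43.2 TPM at 60 minutes. Of the markers of other cells, only 4 of 6 primitive endoderm, 5 of 6 trophectoderm and 4 of 8 fibroblast genes were listed in the authors' table. The rest could not be read. The 4 listed primitive endoderm genes summed to 0.377 TPM at 50 and 0.539 TPM at 60 minutes, with the summed level over the 9 groups between 0.0515 and 0.539 TPM. The 5 listed trophectoderm genes summed to 1.42 and 1.81 TPM, within a range of 0.143 to 1.81 TPM. The 4 listed fibroblast genes summed to 10.6 and 15.9 TPM, within a range of 4.05 to 17.3 TPM. Nearly all of that came from Fn1 (6.92 and 11.3 TPM) and Vim (3.43 and 4.22 TPM), while the fibroblast markers Col1a1 (0.107 and 0.139 TPM) and Thy1 (0.171 and 0.153 TPM) were near 0. None of these marker genes was at exactly 0 at either time.

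RNA levels in TPM were higher at 60 than at 50 minutes for most genes. TPM is a share of a library, so a higher TPM does not by itself give a larger amount of RNA. The levels of the listed genes summed to 38478 TPM at 50 and 49059 TPM at 60 minutes, a 1.28-fold increase, and the median level of a member went from 2.72 to 3.71 TPM. The median difference was 0.30, which is 1.23-fold on the TPM + 1 scale, with the 5th percentile at -0.09 and the 95th at 0.62. The level was higher at 60 minutes for 8059 genes (90.8%) and lower for 812. Past 1.5-fold, 665 genes rose, which is 7.5% of all members, and 16 genes fell, which is 0.18%. In all, 681 members were at or above 1 TPM at 60 but not at 50 minutes and 62 the reverse. For 149 members 60 minutes was the only one of the 9 groups in which they reached 1 TPM, and for 38 members it was 50 minutes. The direction of these members is set by the rule that admitted them, so their counts are a description only. With no filter, 83.5% of the 13957 genes were higher at 60 minutes.

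**Figure D1:**
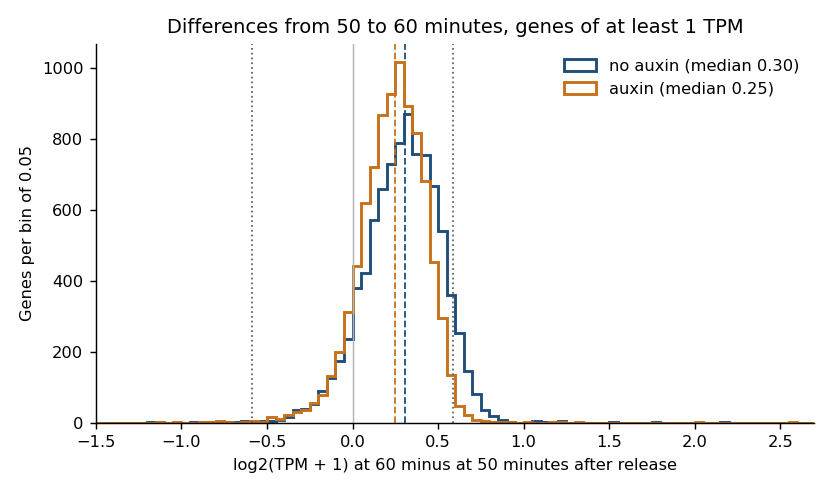
Histogram of the difference of log2(TPM + 1), 60 minus 50 minutes after release, for 8871 genes (x axis, log2 units; y axis, genes per bin of 0.05) without auxin (blue) and with auxin (orange). Dashed lines mark the medians, 0.30 and 0.25, and dotted lines mark 1.5-fold; both distributions lie mostly above 0 and the one without auxin reaches further past 1.5-fold.

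The predominance of higher levels depended on keeping the scale of the deposited TPM, whose total was not the same at both times. Among genes past 1.5-fold, 97.7% were higher at 60 minutes with TPM as deposited, 22.1% with columns scaled to one total, 9.8% with each column centred on its median, and 20% after quantile normalization. The share of all members above 0 was 90.8% as deposited and 60.9%, 42.7% and 54.5% under those scalings. On the log2 scale the total moved by 0.35 between the times. Gene groups are therefore described below by their median relative to that of all members, 0.30, and single genes by their levels.

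The size of the difference went with the length of the gene in the genome. The span, from first to last base of a gene in RefSeq on GRCm38.p6, was found for 8864 members. In the shortest of 5 equal groups (spans of 56 to 7961 bp) the median difference was 0.15. It was 0.25 in the next (7962 to 16072 bp), 0.31 in the middle group (16072 to 28784 bp) and 0.41 in the fourth (28784 to 57597 bp), and 0.39 in the longest (57663 to 1297160 bp). The share of genes that rose was 2.93%, 2.14%, 4%, 11.9% and 16.5% in the same order, beside 7.5% of all members. Genes below 0 made up 26.5% of the shortest and 1.8% of the fourth group. The 4th group stood above the 1st by 0.25, and this gap lay between 0.22 and 0.33 under the 7 other pseudocounts, filters and scalings tried.

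With 20 groups in place of 5, chosen after seeing the data, the medians ran from 0.11 in the shortest group (median span 2212 bp) to 0.47 in the group of 57663 to 71561 bp, and then down to 0.22 in the longest (139114 bp and more). Across genes the Spearman rho of span and difference was 0.38 over all 8864 genes and 0.46 over the 7978 genes of the first 18 groups, given as a description because genes of the same libraries are not replicates. The 665 genes that rose had a median span of 53386 bp, all members 21822 bp and the genes below 0 a median of 6292 bp. Levels were not equal over the groups, with a median at 50 minutes of 3.21 TPM in the shortest of 5 groups and 1.58 TPM in the longest. With genes parted into 3 equal sets by level at 50 minutes, in the highest set the median difference was 0.13, 0.26, 0.33, 0.46 and 0.55 from the shortest to the longest group, and the share that rose went from 2.27% to 39.6%. In the lowest set it was 0.16, 0.20, 0.24, 0.30 and 0.27, and the share that rose went from 4.77% to 3.4%.

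The group of genes with the highest median moved to longer spans from step to step. It was the shortest of 20 groups at 30 to 40 minutes (median 0.49, median span 2212 bp), the group of 16072 to 18657 bp at 40 to 50 minutes (0.62), the group of 57663 to 71561 bp at 50 to 60 minutes (0.47) and the longest group at 60 to 90 minutes (0.27, median span 198827 bp). With auxin the same group as without it was highest at 50 to 60 minutes, with a median of 0.37. Neighbouring steps share a group mean (50 minutes with 40 to 50, 60 minutes with 60 to 90), so a chance deviation of that mean moves both in opposite directions.

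**Figure D2:**
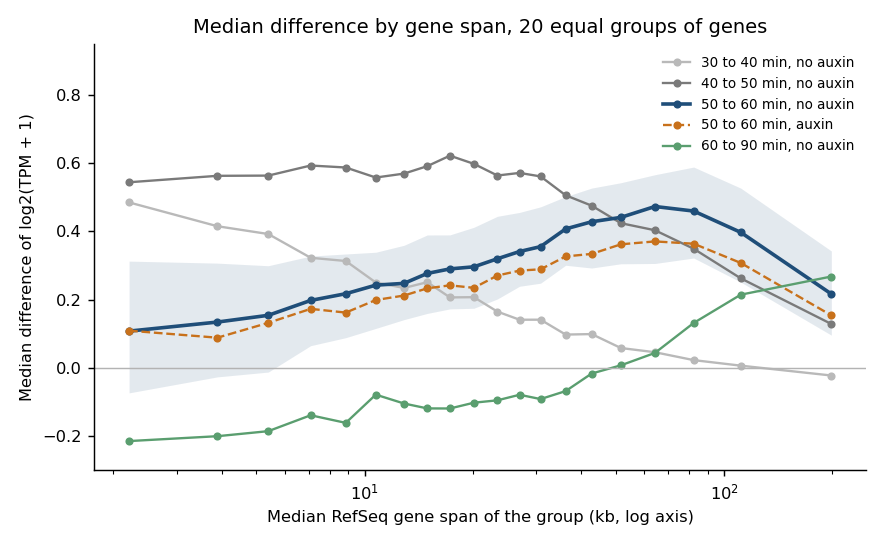
Median difference of log2(TPM + 1) (y axis) in 20 groups of genes ordered by RefSeq span (x axis, median span of the group in kb, log axis) for 4 steps without auxin and, dashed, for 50 to 60 minutes with auxin; the shaded band is the range from the 25th to the 75th percentile of genes at 50 to 60 minutes without auxin. The median at 50 to 60 minutes goes from 0.11 in the shortest to 0.47 in the 17th group and 0.22 in the longest.

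The 15 genes with the largest differences were of a different kind, mostly short or near 0 at 50 minutes. Rbm4, an RNA-binding splicing regulator, went from 1.65 to 6.58 TPM, and from 2.74 to 5.99 TPM with auxin. Adam1a, a gene of the ADAM family of membrane proteases, went from 0.958 to 5.68 TPM, and from 0.912 to 3.27 TPM with auxin. Both rose in both arms. Foxo1, a forkhead transcription factor under control of insulin signalling, spans 81773 bp and went from 3.54 to 7.73 TPM (4.09 to 7.45 TPM with auxin). Its level was 1.79 TPM at 40 minutes and 6.4 TPM at 90 minutes, so it was highest at 60 minutes. Lrrn4cl went from 2.05 to 6.02 TPM, Scand1 from 2.92 to 7.21 TPM and Nudt3, a phosphohydrolase of inositol phosphates, from 0.665 to 2.55 TPM, and all 3 were also higher at 60 minutes with auxin.

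Several of these genes rest on low or unstable levels. Snhg17 and Moap1 were at 1.80 and 1.71 TPM at 40 minutes, listed at 0 at 50 minutes, at 1.35 and 1.23 TPM at 60 minutes and listed at 0 again at 90 minutes. They were listed at 0 at both times with auxin, so no fold is given. Commd5 went from 0.132 to 1.43 TPM without auxin and was listed at 0 at both times with it. Glmp went from 0.0632 to 1.22 TPM and was at 0.228 TPM at 90 minutes. Trappc5 went from 0.0671 to 1.38 TPM without auxin and from 0.882 to 0.0611 TPM with it. None of these 5 genes had passed 2 TPM in any of the 9 groups, and only Glmp was higher at 60 minutes with auxin, at 0.284 and 0.496 TPM. The histone gene Hist1h2bq, 9.96 and 24.7 TPM, is uncertain because it has close copies whose reads may be split. Of the 15 spans, 6 overlapped another RefSeq gene (40%, beside 46.1% of all members), among them Rbm4, Moap1, Scand1 and Trappc5, where reads may be shared.

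Mrps6 and Slc5a3 form 1 locus and moved apart. Mrps6 encodes a protein of the mitochondrial ribosome and Slc5a3 a sodium-coupled transporter of myo-inositol, and their RefSeq spans on chromosome 16 begin at nearly the same base, chr16:92058336-92112227 for Mrps6 and chr16:92058322-92087473 for Slc5a3. Slc5a3, the shorter, was at 6.10 TPM at 40 minutes, 12.3 TPM at 50, 5.96 TPM at 60 and 3.54 TPM at 90 minutes. Mrps6 was at 3.23, 7.47, 17.4 and 8.74 TPM at the same times. Slc5a3 had thus fallen by 0.93 on the log2 scale over the same 10 minutes in which Mrps6 rose by 1.12. With auxin Slc5a3 went from 13.4 to 7.56 TPM and Mrps6 from 8.69 to 16.4 TPM. How reads of the shared stretch were assigned is not given in the sources used here, so the split of the locus between the genes is uncertain.

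**Figure D3:**
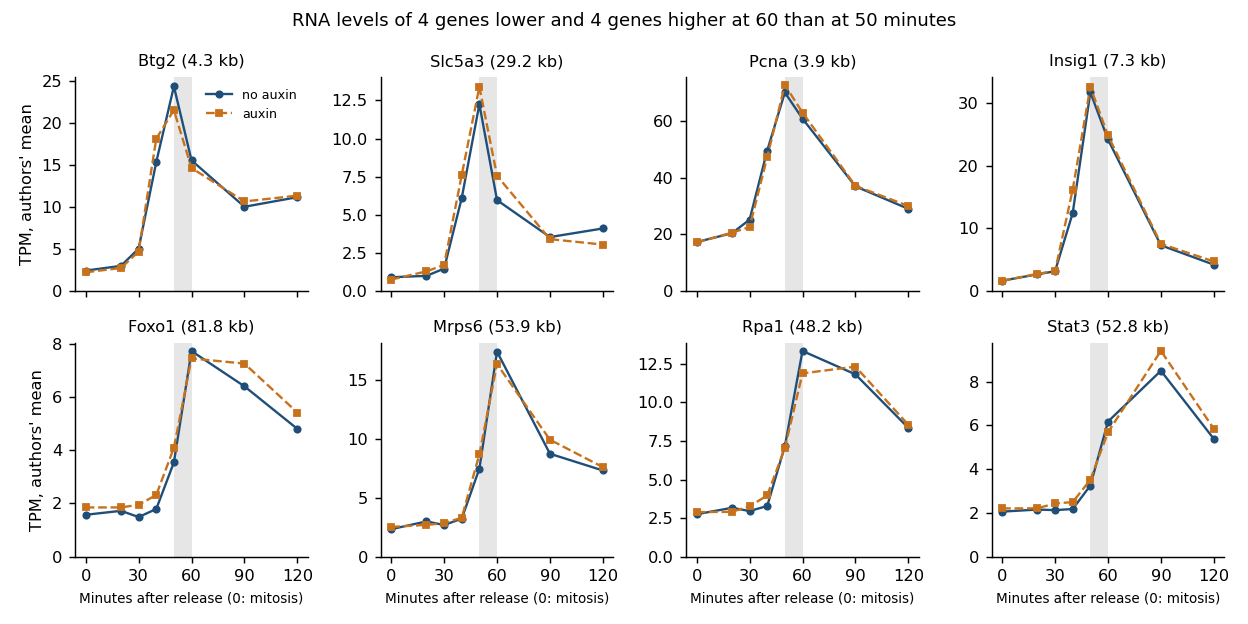
Level in TPM (y axis, the authors' mean of 3 libraries) against minutes after release (x axis, mitosis at 0) for 4 genes lower at 60 than at 50 minutes (top) and 4 genes higher (bottom), without auxin (circles) and with auxin (squares); the gene span is given in kb and the grey band marks the step. Btg2, Slc5a3, Pcna and Insig1 are highest at 50 minutes in both arms, and Mrps6 at 60 minutes, while Stat3 goes on to 8.49 TPM at 90 minutes without auxin.

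Genes of chromosome structure stood highest among the lists by median difference, before gene span was considered. Cohesin holds sister chromatids together and forms loops, and condensin compacts mitotic chromosomes. All 23 members of this list were higher at 60 minutes, 6 rose (beside 7.5% of all members), and the list's median of 0.50 lay 0.20 above that of all members. Nipbl, which loads cohesin, went from 2.80 to 5.18 TPM, and Esco1, an acetyltransferase of the cohesin subunit Smc3, from 2.24 to 4.30 TPM. Its paralogue Esco2 was at 17.8 and 18.3 TPM, a difference of 0.04 that turned below 0 under all 3 scalings. These are long genes, with a median span of 45546 bp. Relative to genes of like span (the same of the 20 groups) the list's median was 0.11 higher, and 20 of 23 members lay above the median of their span group. On that measure the list was not the highest, with 0.15 for the Polycomb and Trithorax list and 0.13 for the proteasome list. With auxin the order differed, with 0.09 for cohesin and condensin, 0.06 for Polycomb and Trithorax and 0.13 for the proteasome list.

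Of the Polycomb and Trithorax list, the writers and readers of repressive and active histone methylation, all 37 members were higher at 60 minutes and 9 rose, beside 90.8% and 7.5% of all members, with a median of 0.41. Phc3, a subunit of Polycomb repressive complex 1, went from 3.40 to 6.65 TPM, and Cbx6, another Polycomb protein, from 0.734 to 2.18 TPM. Nuclear pore and lamina genes, which rebuild the nuclear envelope after division, were higher in 36 of 37 members with 7 risen, beside the same shares of all members, and had a median of 0.43. Lemd3, an inner nuclear membrane protein, went from 4.04 to 7.62 TPM and Tpr, of the nuclear basket, from 5.22 to 9.22 TPM, whereas Banf1, a small protein that binds DNA in the re-forming envelope, was at 2.80 TPM at both times. Relative to genes of like span the medians of these lists were 0.15 and 0.06 higher, and 0.06 and 0.03 higher with auxin. All 3 lists stayed above all members under each of the 7 other pseudocounts, filters and scalings.

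**Figure D4:**
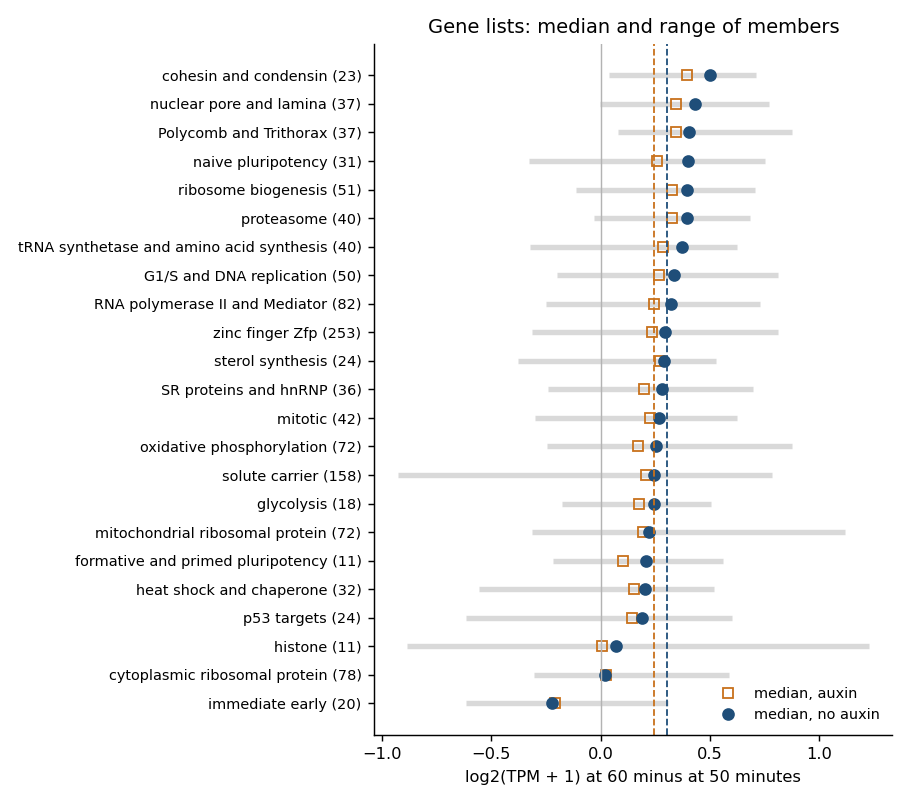
Difference of log2(TPM + 1), 60 minus 50 minutes (x axis), for 23 gene lists with the number of members in brackets; circles are medians without auxin, squares medians with auxin, grey bars the range of members without auxin, and dashed lines the medians of all members, 0.30 and 0.25. Immediate early genes have the lowest median, -0.22, and cohesin and condensin genes the highest, 0.50.

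Naive pluripotency genes were higher at 60 minutes in 29 of 31 members and 5 rose, beside 90.8% higher and 7.5% risen of all members. The list's median of 0.40 lay 0.10 above that of all members. Stat3, the transcription factor that carries the signal of leukaemia inhibitory factor, went from 3.25 to 6.17 TPM, and Il6st, the receptor subunit of that pathway, from 2.98 to 5.45 TPM. Esrrb went from 3.97 to 6.64 TPM and Nr5a2 from 2.89 to 4.85 TPM, the latter just past 1.5-fold. Both targets of the degradation system thus had RNA in these cells at both times, and both levels were above those in mitosis (1.61 and 2.75 TPM). Tdgf1, the Nodal co-receptor, also rose, from 7.75 to 12.8 TPM, and completes the 5.

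The core factors were spread widely. Pou5f1 went from 14.9 to 19.9 TPM and Zfp42, a zinc finger gene used as a stem cell marker, from 29.8 to 43.2 TPM, and neither passed 1.5-fold. Nanog was at 6.58 and 7.02 TPM, a difference of 0.08 that turned below 0 under all 3 scalings. Klf4, a Krüppel-like factor, went the other way, from 7.36 to 5.84 TPM, and so did the homeobox gene Gbx2, from 3.28 to 2.41 TPM. Both had risen steeply from mitosis, where Klf4 was at 0.409 and Gbx2 at 0.21 TPM, and both were lower again at 90 minutes (2.15 and 0.891 TPM). Tfcp2l1, another naive factor, was at 2.54 and 3.28 TPM, which turned below 0 with columns centred on their medians and after quantile normalization. Relative to genes of like span the list's median was 0.11 higher, with 23 of 31 members above, and 0.06 higher with auxin.

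**Figure D5:**
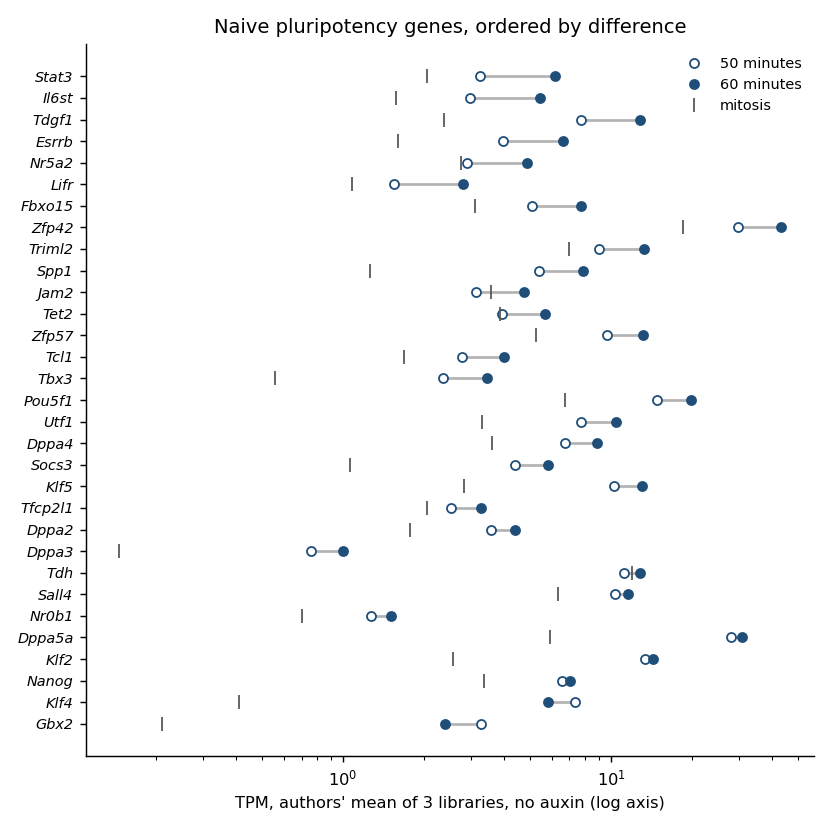
Level in TPM (x axis, log axis, the authors' mean of 3 libraries without auxin) of the 31 naive pluripotency genes in mitosis (bars), at 50 minutes (open circles) and at 60 minutes (filled circles), ordered by difference. Gbx2 and Klf4, at the bottom, are lower at 60 minutes, and Stat3, at the top, goes from 3.25 to 6.17 TPM.

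Formative and primed pluripotency genes had a median of 0.21, below that of all members. Dnmt3l, a cofactor of DNA methyltransferases, went from 5.48 to 8.55 TPM. Etv5, an ETS factor downstream of ERK signalling, went from 10.4 to 14.9 TPM. No member of the 11 rose, beside 7.5% of all members. Tcf15, a basic helix-loop-helix factor, was the lowest, at 11.3 and 9.56 TPM.

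Protein turnover and growth genes split by type. The proteasome list had a median of 0.40 with 39 of 40 members higher and 3 risen, near the 90.8% and 7.5% of all members. Psme4, a proteasome activator, went from 4.05 to 7.13 TPM and Psmb7, a catalytic subunit, from 5.47 to 9.16 TPM. Ribosome biogenesis had a median of 0.40 with 49 of 51 members higher and 4 risen, also near those shares. Among the 4 were Rcl1 (3.79 to 6.82 TPM) and Nat10, an RNA acetyltransferase (6.71 to 10.8 TPM). Nop56, a core protein of small nucleolar particles and among the most abundant RNAs of the table, was at 61.0 and 56.3 TPM. Relative to genes of like span the medians of the proteasome and ribosome biogenesis lists were 0.13 and 0.07 higher, with 33 of 40 and 35 of 51 members above. Both lists stayed above all members under the 7 other pseudocounts, filters and scalings.

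Genes for the ribosomal proteins themselves did not share this. The 78 cytoplasmic ribosomal protein genes had a median of 0.02, 0.28 below all members, with 44 above and 34 below 0, and they stayed below all members under the same 7 alternatives. Only Rpl30 passed 1.5-fold, from 12.1 to 18.7 TPM, beside 7.5% risen of all members. Rplp0 was the lowest, at 22.4 and 18 TPM. These genes have processed copies elsewhere in the genome, so single values are uncertain. They are short, with a median span of 3179 bp, yet the median lay 0.12 below that of genes of like span. The 72 mitochondrial ribosomal protein genes had a median of 0.22 with 4 risen, among them Mrps34 (0.621 to 1.79 TPM), again beside 7.5% of all members. Oxidative phosphorylation genes had a median of 0.26 with 2 of 72 risen, Ndufb7 (1.19 to 3.03 TPM) and Ndufb5 (4.18 to 6.82 TPM).

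For the remaining metabolic lists the medians were close to that of all members. The counts of risen genes in these lists stand beside 7.5% of all members. Transfer RNA synthetase and amino acid synthesis genes had a median of 0.37 with 2 of 40 risen, Qars (6.07 to 9.91 TPM) and Mthfd1 (10.2 to 16.0 TPM), while Ddit3, a stress-induced transcription factor placed in the same list, was at 21.7 and 17.2 TPM. Sterol synthesis genes had a median of 0.29 and none of 24 rose. Srebf2, the master regulator of the pathway, went from 4.88 to 7.49 TPM, and Insig1, which holds it back, from 31.7 to 24.2 TPM after 12.4 TPM at 40 minutes. Glycolysis genes had a median of 0.24 and none of 18 rose, with the lactate transporter Slc16a1 lowest at 21.0 and 18.4 TPM.

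Genes of the transcription machinery tracked the whole. Of all members 7.5% rose and 0.18% fell, the shares beside which the counts in this paragraph stand. RNA polymerase II, general factor and Mediator genes had a median of 0.32, which passed below all members under 5 of the 7 other pseudocounts, filters and scalings (both pseudocounts, at least 5 TPM, one total and quantile normalization), and 9 of 82 rose. Gtf2e2 went from 3.88 to 7.10 TPM and Taf2 from 3.73 to 6.77 TPM, while Taf13 was at 8.59 and 7.06 TPM. Genes named Zfp, mostly zinc finger repressors, had a median of 0.30, which passed above all members with both other pseudocounts, with no filter, with columns scaled to one total and after quantile normalization, and 8 of 253 rose (3 of the 253 are named by rule: Zfp644 at 2.15 and 4.53 TPM, Zfp568 at 5.83 and 10.6 TPM, Zfp296 at 9.28 and 7.26 TPM). The 158 solute carriers had a median of 0.25, with 10 risen and 1 fallen, Slc5a3. Splicing factors of the SR and hnRNP families had a median of 0.28, which passed above all members with no filter and after quantile normalization, and 1 of 36 rose, Hnrnpll, from 4.58 to 8.04 TPM.

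Cell cycle genes also lay near the whole, where 7.5% of all members rose. The G1/S and DNA replication list had a median of 0.34, which passed below all members with both other pseudocounts, at 5 TPM or more and with columns scaled to one total, and 4 of 50 rose. Rpa1, of the single-strand binding complex, went from 7.16 to 13.3 TPM, and Chaf1b, of the histone chaperone that follows the fork, from 7.61 to 12.7 TPM. Pcna, the sliding clamp, had one of the 5 highest levels at 60 minutes and was lower than at 50, at 70.1 and 60.8 TPM. Mitotic genes had a median of 0.27 with 4 of 42 risen, among them Kif20b (5.08 to 8.38 TPM) and Ttk, a spindle checkpoint kinase (3 to 5.16 TPM), whereas cyclin A2 (Ccna2) was at 8.92 and 7.05 TPM. The 11 histone genes ranged most widely, from Hist1h2br, 27.9 and 14.6 TPM, to Hist1h2bq, and both are uncertain because of close copies.

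Immediate early genes, the transcription factors and RNA regulators induced first by growth signals, were the list that stood lowest. The list was fixed at 36 genes, of which 24 were in the authors' table and 20 were members. Their median was -0.22, 0.53 below all members, with 14 of 20 members lower at 60 minutes, beside 812 of 8871 for all members. The median stayed 0.30 to 0.67 below all members under the 7 other pseudocounts, filters and scalings. Btg2, an antiproliferative gene that p53 also induces, fell, from 24.4 to 15.6 TPM (21.5 to 14.6 TPM with auxin), and was the only member to pass 1.5-fold. Next were Gadd45g (2 and 1.05 TPM), Btg1 (11.9 and 8.26 TPM), Fosb (3.36 and 2.53 TPM), Klf10 (11.4 and 9.09 TPM), Myc (6.72 and 5.32 TPM), Fos (1.98 and 1.46 TPM), Gadd45b (7.39 and 5.96 TPM) and Egr1 (2.34 and 1.84 TPM). Dusp6, Dusp5, Zfp36l1, Klf6 and Ier3 were lower by -0.23, -0.22, -0.13, -0.13 and -0.08.

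All 14 of these were at their highest of 8 stages at 50 minutes, beside 72.2% of the 812 members below 0. The 14 were picked as lower at 60 than at 50 minutes, so this is a description only. With auxin 13 of the 14 were lower at 60 minutes too, beside 67.9% of the 812, and the list's median was -0.21. Ier3 was the exception, at 0.25 with auxin. The 6 members above 0 were Nr4a1 (4.56 and 5.89 TPM), Srf (4.23 and 5.43 TPM), Fosl1, Mafk, Sgk1 and Maff. For Nr4a1 and Srf, at 0.31 and 0.30, the direction turned with columns centred on their medians and after quantile normalization. The list's median was 0.65 at 40 to 50 minutes and -0.53 at 60 to 90 minutes, when 19 of 20 members were lower. These genes are short (median span 6618 bp), but the median also lay 0.36 below that of genes of like span. Summed over the 20 members, the level was 15 TPM in mitosis, 127 TPM at 50 and 106 TPM at 60 minutes.

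Promoters of these genes were searched for the letters TATAAA, the core of the TATA box. The window ran from 250 bases before to 50 bases after the start in the RefSeq table for GRCm38.p6, which held a promoter for 7162 of 8871 members and 16 of the 20 immediate early members, and both strands were searched. TATAAA was in 6 of 16 immediate early windows (37.5%) and in 423 of 7162 (5.91%), and in 49 of the 444 windows (11%) of genes below 0 in both arms and 4.36% of those that rose. The 6 were Fos, Btg1, Zfp36l1, Gadd45b, Gadd45g and Srf, of which Srf was higher at 60 minutes. Among the shortest of 5 span groups, 43 of 115 genes with TATAAA (37.4%) and 25.7% of the 1299 without it were below 0. In the next group the shares were 15.6% and 9.11%, and in the fourth 2.74% and 1.69%. They were 2.99% and 3.58% in the middle group and 3.85% and 3.83% in the longest. The median difference was lower with TATAAA than without it in every span group, by 0.12 against 0.16 in the shortest and 0.31 against 0.40 in the longest. CCAAT was in 10 of 16 immediate early windows, in 40.4% of all windows and in 38.7% of those that rose. For all windows and those that rose the shares were, for GGGCGG, 68.7% and 73.6%, and for TGACGTCA 3.98% and 4.74%. The E2F letters TTTCGCGC were in 0.726% and 0.19% and TTTGGCGC in 1.2% and 1.71%, the former in 1 and the latter in 9 of the 527 windows of genes that rose. None of these motifs contains another. A match is a description of the letters only.

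The 100 bases before the start are shown for the 5 immediate early genes lower in both arms that hold TATAAA there on their own strand, because they show how near the start the letters lie. Capitals mark TATAAA, and each is written 5′ to 3′ on the strand of the gene. The first T lies 27 bases before the start in Gadd45g (chr13:51846575-51846674, plus strand), 26 in Btg1 (chr10:96616901-96617000, plus strand), 33 in Fos (chr12:85473790-85473889, plus strand), 46 in Gadd45b (chr10:80929991-80930090, plus strand) and 29 in Zfp36l1 (chr12:80113014-80113113, minus strand).
Gadd45g: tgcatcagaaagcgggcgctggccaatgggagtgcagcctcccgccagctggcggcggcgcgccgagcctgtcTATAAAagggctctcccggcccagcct
Btg1: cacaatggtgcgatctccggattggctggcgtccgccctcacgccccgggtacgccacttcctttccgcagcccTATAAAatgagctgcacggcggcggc
Fos: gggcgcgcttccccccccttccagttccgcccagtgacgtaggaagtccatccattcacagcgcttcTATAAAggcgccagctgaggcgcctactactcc
Gadd45b: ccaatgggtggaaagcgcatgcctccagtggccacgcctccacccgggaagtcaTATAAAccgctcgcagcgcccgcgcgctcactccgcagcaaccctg
Zfp36l1: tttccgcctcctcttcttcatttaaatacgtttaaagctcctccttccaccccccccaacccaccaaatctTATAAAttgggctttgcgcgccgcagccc

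Targets of p53 and heat shock genes also had members that were lower at 60 minutes. Of all members 812 of 8871, or 9.15%, were below 0, while 7.5% rose and 0.18% fell. Of 24 p53 targets, 6 were below 0 and the median was 0.19, with Btg2 the only one fallen and Polk, a translesion polymerase, the only one risen, from 3.43 to 5.72 TPM. Of 32 heat shock and chaperone genes, 10 were below 0 and all 10 of these were below 0 with auxin as well, with a median of 0.20. Hspb1, a small heat shock protein, was lowest, at 5.82 and 3.64 TPM (4.61 and 4.10 TPM with auxin), and Hsf2, a heat shock transcription factor, was highest, at 6.06 and 9.11 TPM. Without a filter on low genes, where the median of all genes was 0.17, the medians of these 2 lists passed above that of all genes.

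Over all members, 551 genes were below 0 in both arms, which is 67.9% of the 812 without auxin and 60.2% of the 915 with it. Of the 551, 77% were at their highest of 8 stages at 50 minutes, beside 72.2% of the 812. A gene highest at 50 minutes is lower at 60 by construction, so these shares are a description only. Their median difference was 0.56 at 40 to 50 minutes and -0.42 at 60 to 90 minutes. Against asynchronous cells of the same arm, 448 of the 551 (81.3%) were above the asynchronous level at 50 minutes, beside 72.6% of all members. At 60 minutes 441 of the 551 (80%) were above it, beside 86.3% of all members.

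The 16 genes that fell were at 0.656 to 27.9 TPM at 50 minutes. Beside Btg2 and Slc5a3 they included Id4, an inhibitor of basic helix-loop-helix factors, at 2.40 TPM at 40 minutes, 3.54 at 50, 1.48 at 60 and 0.477 at 90 minutes. Sertad1, a cell cycle regulator, was at 8.54 and 5.08 TPM, Tuba1a, an alpha tubulin, at 5.21 and 2.98 TPM, and Arl4d, a small GTPase, at 5.74 and 3.45 TPM. Rgs2, a regulator of G protein signalling, was at 1.07 and 0.326 TPM. Pagr1a (4.83 and 2.54 TPM), Cstb (2.31 and 1.03 TPM), Pet117 (1.67 and 0.528 TPM), Chtf8 (1.65 and 0.234 TPM), the non-coding 1700030C10Rik and the uncertain Hist1h2br made up the rest with 3 short RNA genes, Mir30a, Mir496a and Snhg5. In all, 11 of the 16 were highest at 50 minutes, 13 were below 0 with auxin and 4 fell there too, beside 0.135% of members that fell with auxin. Sertad1, Tuba1a, Arl4d, Rgs2 and 1700030C10Rik lie outside the rule for named genes and are given to complete the set.

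The sequences of 4 mature microRNAs are shown because their genes are among the largest differences, and the seed (bases 2 to 8), which pairs with targets, is in capitals. MicroRNAs are cut from hairpins in longer transcripts, and TPM here refers to gene models of 71 to 103 bases and not to mature RNA, and the number of reads behind a value is unknown. Mirlet7d (chr13:48536012-48536114) had the largest difference of all members, 2.18, from 0.543 to 6 TPM (0.523 to 5.13 TPM with auxin), but it had been at 5.07 TPM at 40 minutes, so 50 minutes was a low point in both arms. Mir298 went from 4.09 to 11.1 TPM (6.96 to 10.3 TPM with auxin) and was at 7.5 TPM in mitosis. Mir30a went from 0.819 TPM to a listed 0, as with auxin (1.16 TPM to a listed 0), and Mir496a from 1.73 to 0.649 TPM. Sequences are from RefSeq on GRCm38.p6, 5′ to 3′, at chr13:48536078-48536099 (minus strand), chr2:174267553-174267575 (minus), chr1:23272274-23272295 (plus) and chr12:109739165-109739186 (plus) in the order shown.
mmu-let-7d-5p: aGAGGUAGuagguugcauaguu
mmu-miR-298-5p: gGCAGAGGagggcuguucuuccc
mmu-miR-30a-5p: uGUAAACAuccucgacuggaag
mmu-miR-496a-3p: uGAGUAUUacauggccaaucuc
The RefSeq table matched 11 of the 15 members named Mir, with 20 mature sequences and 20 distinct seeds, so none share a seed. Mir20a and Mir17hg, the host gene of its cluster on chromosome 14, differed in direction, and both lie outside the rule for named genes. Mir20a was at 22.9 and 20.0 TPM and Mir17hg at 12.9 and 23.5 TPM. With auxin they were at 25.5 and 21.3 TPM and at 13.5 and 24.0 TPM. How reads were assigned between Mir20a and its host gene is not given in the sources used here, so their split is uncertain.

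The same step with auxin, in libraries of its own, gave smaller differences for most genes. Its median was 0.25, and 127 genes rose, which is 1.43% of members. Of the 665 genes that rose without auxin, 655 were above 0 with it, beside 89.6% of all members. Their median was 0.52 with auxin against 0.64 without, and 99 also rose, 14.9% of the 665 and 78% of the 127. The 665 were chosen on the step without auxin, which favours high values there, so these 2 medians are a description only. Across genes Pearson's r of the differences in the arms was 0.83 and Spearman's rho 0.87, and r was 0.92 for the 2325 genes of at least 5 TPM at 50 minutes, as a description across genes that share libraries. The difference was smaller with auxin for 7030 genes (79.2%), with a median gap between arms of 0.0013 at 50 minutes and -0.06 at 60 minutes. The total went up 1.21-fold with auxin and 1.28-fold without it, and the part of that gap in total in the smaller differences was not tested.

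Nanog, a gene the authors' deposited table calls down, was at 4.34 and 4.35 TPM with auxin, and Zfp42, called down as well, at 21.8 and 28.9 TPM. Esrrb went from 3.75 to 5.94 TPM and Nr5a2 from 2.73 to 3.8 TPM with auxin. Since auxin acts on the proteins, these RNA levels do not check the degradation.

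The step before and the step after looked different over the same genes. From 40 to 50 minutes the median was 0.50, 3519 genes rose, which is 39.7% of members, and 9 fell, which is 0.101%. From 60 to 90 minutes the median was -0.05, 150 genes rose, which is 1.69%, and 672 fell, which is 7.58%. Both share a group mean with the step from 50 to 60 minutes. Over the 7 steps from mitosis to 120 minutes, 1754 genes (19.8%) had their largest rise from 50 to 60 minutes, 5147 from 40 to 50 and 864 from 60 to 90 minutes. The share was 6.09% in the shortest of 5 span groups and 42.9% in the longest. With auxin 1287 genes (14.5%) had their largest rise in this step and 1524 from 60 to 90 minutes. The largest rise fell in this step in both arms for 869 genes, 49.5% of the 1754 and 67.5% of the 1287.

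Most members passed the level of asynchronous cells around this time, on the scale of the deposited TPM. At 40 minutes 36.2% were above it, at 50 minutes 72.6% and at 60 minutes 86.3%. For the 665 genes that rose, 16.7%, 76.5% and 98.5% were above it. Their median difference from asynchronous cells at 60 minutes was 0.94, beside 0.70 for all members. These genes were chosen for a high level at 60 against 50 minutes, which favours high values at 60 minutes, so the values are a description only. Of these 665 genes, 352 were higher still at 90 than at 60 minutes, and 47.1% were lower, beside 55.7% of all members that were lower. At 120 minutes 165 of the 665 were above their level at 60 minutes and 550 above their level at 50 minutes. These counts at 120 minutes stand without the share of all members, so they are a description only. Mrps6 came back to 7.32 TPM at 120 minutes, close to its 7.47 TPM at 50, whereas Rbm4 went on to 15.2 TPM.

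Medians were close for genes with and without binding of Nr5a2 nearby. Among members with no peak of the authors' list in the gene or within 10 kb (2470 genes) the median was 0.30, and among those with 1 or more (6394 genes) 0.31. The shares that rose were 6.48% and 7.88%, beside 7.5% of all members. Genes with peaks are longer, and in the longest of 5 span groups the medians were 0.44 without and 0.38 with a peak. By the call in the authors' deposited table, made on these same samples, the median was 0.27 for 851 genes called down, 0.31 for 7288 not responsive and 0.33 for 732 called up, of which 13.9% rose. The genes called up have a median span of 44291 bp, and relative to genes of like span the medians were -0.02, 0.0015 and 0.0086. By RefSeq type, 8541 protein-coding genes had a median of 0.31 and 237 long non-coding RNA genes a median of 0.08, the latter with a median span of 7840 bp against 22319 bp.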

How the data were processed

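RNA-seq levels came from a deposited table with 1 TPM column per group, which the authors made as the mean of 3 libraries. All 246530 values above 0, taken times 3, were whole at 9 decimals within 0.02. Per the submitters' processing notes the tools were STAR, RSEM and DESeq2, with Bowtie2 and MACS2 for the Nr5a2 peaks, and the build mm10. The sources used here do not say which gene regions were counted. TPM keeps no depth, so the depth per library is unknown. The planned limma test needs columns per library and was not run. Differences of log2(TPM + 1), counts past 1.5-fold and medians were computed with Python 3.11.15, pandas 2.3.3 and numpy 2.4.6, and the code was tested on simulated data. Members and the 26 gene lists were chosen with earlier results of these data known. Genes were named by rule: the 15 highest and 10 lowest differences, per list the 2 highest and the 1 lowest, 7 pluripotency factors and the 5 highest levels at 60 minutes. Other genes complete a set, serve as markers or are marked as outside the rule. A gene that the rule names is not reported here. In all, 8 alternatives were tried.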

Additional observations from a re-analysis of the deposited data

Results flagged for a closer look

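For 3 genes the groups without and with auxin went opposite ways past 1.5-fold, and the difference between the arms was not tested. The values that follow are the log2 difference with auxin minus that without. For Snhg5, a host gene of small nucleolar RNAs, it was 3.78, with 1.27 TPM and a listed 0 without auxin and a listed 0 and 5.04 TPM with auxin. For Trappc5, a subunit of a vesicle-tethering complex, it was -1.98, with 0.0671 and 1.38 TPM without auxin and 0.882 and 0.0611 TPM with auxin. For Fam177a it was -1.52, with 1.76 and 3.67 TPM without auxin and 3.71 and 1.79 TPM with auxin. Fam177a is named here after its values were seen.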

How the results depend on the processing

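No paired analysis was possible because each column is a group mean without replicate numbers, and for the same reason no library could be left out. Beside 665 genes higher and 16 lower, the counts were 2229 and 40 with a pseudocount of 0.1, 1269 and 31 with 0.5, 21 and 74 with columns scaled to one total, 15 and 138 with columns centred on their medians, 14 and 56 after quantile normalization, and 14 and 2 past 2-fold. With genes of at least 5 TPM, 6 were lower. The median difference was 0.17 with no filter, 0.053 with one total, -0.038 with centred columns and 0.017 after quantile normalization. Genes with their largest rise in the step numbered 711 at 5 TPM or more, 1006 with centred columns and 1156 after quantile normalization. These 3 counts and the median stayed within 1.5 times under the alternatives not named, as did the gap between span groups under all 7. Of 23 list medians relative to all members, 3 changed side with either pseudocount, 9 with no filter, 3 at 5 TPM or more, 3 with one total, none with centred columns and 3 after quantile normalization. The cause was not tested, beyond the fewer genes that a filter leaves. Of 99 named genes none reversed past 1.5-fold, and 6, 9 and 7 changed sign with one total, with centred columns and after quantile normalization. Only 29, 24 and 30 of the 99 kept a difference counted as the same under those scalings. The size of most single-gene differences thus depended on the scale of the deposited TPM. Depth limits low genes, whose number of reads is unknown.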
